A study of Sparus aurata with 9 samples.

Results

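Translation factors and tRNA ligases are the proteins that start, extend and end the synthesis of a protein on the ribosome and that load tRNAs with amino acids. Their gene models were taken from the RNAseq of white muscle of gilthead seabream (Sparus aurata) by their descriptions in the deposited tables. A description had to name a translation initiation factor, elongation factor 1 or 2, a tRNA ligase or tRNA synthetase, or a eukaryotic peptide chain release factor, and descriptions with the word kinase were left out. The rule found 270 of 61849 gene models, under 95 different descriptions. The fish had been kept for 8 months in 3 groups, with 3 fish per group: minimal flow (the controls), swimming at 1 BL s-1 (body lengths per second) and swimming at 2 BL s-1. The fish came from a commercial farm, no strain or genotype is given, and fish of similar size with normal morphology were used for RNAseq. Each fish was a separate animal, but each group came from 1 tank, so the flow and the tank cannot be told apart and the tests measure the spread between fish within tanks. Both comparisons with the controls use the same 3 control fish.

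In animals, initiation factors (eIFs) bring the first tRNA, the small ribosomal subunit and the capped mRNA together. Elongation factors (eEFs) then deliver each loaded tRNA and move the ribosome along, and release factors end the chain. The tRNA ligases, also called aminoacyl-tRNA synthetases, attach each amino acid to its tRNA. In skeletal muscle, protein synthesis is regulated mainly at initiation and elongation, through the mTOR pathway, 4E-binding proteins and phosphorylation of eIF2 and eEF2.

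The total count per fish was between 3660245 and 5267310 fragments, and these genes took between 0.812% and 0.916% of it. Markers of fast white muscle took between 24.3% and 28.9% of the counts of every fish. The third fish at 1 BL s-1 stood apart from the other 8. It lay at 53.6 on the first principal component, which held 30.8% of the variance, whereas the other fish lay below 0. The median deviation of the translation genes from the mean of the 9 fish was 0.32 on the log2 scale in that fish and between -0.15 and 0.05 in the others. That fish also had the highest level of red blood cell markers, at 938 normalized counts against 117 to 358 in the others. Leukocyte markers had 33.5, 22.0 and 19.5 normalized counts in the control fish. They had 51.3, 53.9 and 82.7 at 1 BL s-1 and 40.6, 48.8 and 67.6 at 2 BL s-1. These markers were thus higher in every swimming fish than in every control fish, and highest in the third fish at 1 BL s-1. The second fish at 2 BL s-1 had 599 normalized counts of slow muscle markers, against 63.8 to 151 in the others. The part of these cells in the results was not tested. Some values that the third fish at 1 BL s-1 moved are given with and without it, and all other values include it.

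Most of the 270 gene models carried no count. A total of 53 had a count in any fish and 217 were listed at 0 in all fish, against 14465 of 61849 with a count in the whole series. Of the 53, 36 passed the low-count filter in each of the 3 comparisons and 17 did not. These 17 had between 1 and 67 counts over the 9 fish, with a median of 7. The 6 release factor models of eRF1 and the 5 of its partner eRF3a, which end translation at the stop codon, were all listed at 0. The same held for eIF4G1, the scaffold of the cap-binding complex, for eIF4B, a helper of the eIF4A helicase, for subunits 2 and 3 of eIF2, the carrier of the initiator tRNA, and for valine--tRNA ligase. Cells in general use these genes, so a listing at 0 is not read here as absence of expression.

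**Figure D1:**
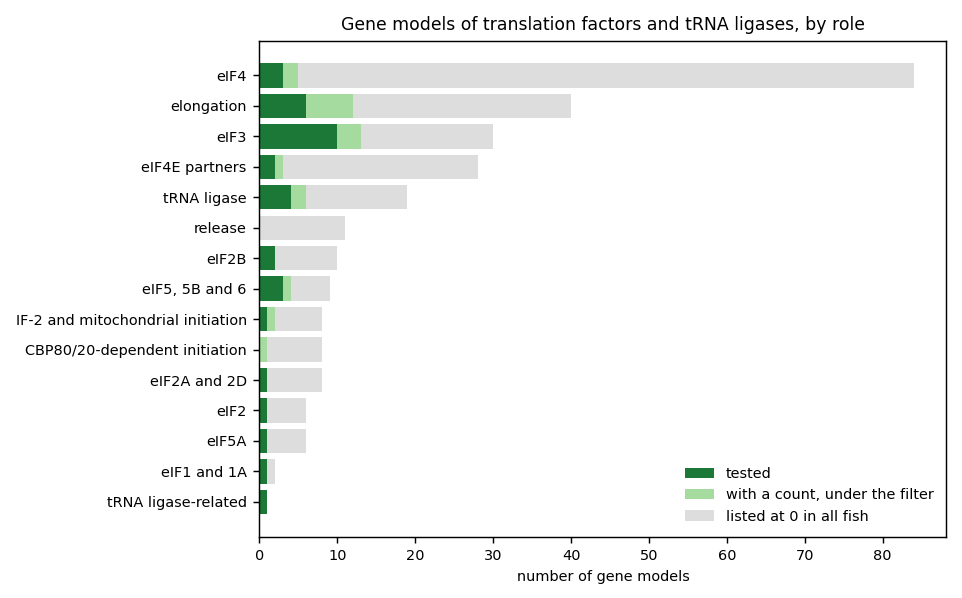
Number of gene models (horizontal axis) in each role, split into models tested, models with a count that did not pass the low-count filter, and models listed at 0 in all 9 fish. The eIF4 models are the most numerous, with 84 models of which 79 are listed at 0, and the 10 tested eIF3 models are the most in any role.

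Whether a model had a count went with its identifier. Identifiers end in a number for the model, and some models share all but that last number. Of the 46 translation models that stand alone under their number, 38 had a count (82.6%, 95% Wilson interval 69.3 to 90.9). Of the 224 models that share their number with another model, 15 had a count (6.70%, 4.10 to 10.8). This interval treats each model as a separate trial, although models under one number need not be independent, so it may be too narrow. The whole series showed the same order, with 60.4% of 18463 models alone and 7.62% of 43386 models that share a number. An example is elongation factor 1-alpha, which delivers loaded tRNAs to the ribosome: of 9 models under one number, Sa_23853.11.8 held 2201 of 2218 counts over all fish. The 8 models described as elongation factor 1-alpha 1 were listed at 0, as were those described as 1-alpha 1-like, 1-alpha 2 and 1-alpha-like. Secondary alignments had been excluded before counting, and the sources used here say no more on reads that match several or overlapping models, so levels of factors with several models are uncertain.

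Among the 36 models tested, few were called between the groups, at shares near those among all gene models tested. The test was edgeR's quasi-likelihood test, and a model was called at an unadjusted p of 0.05, the threshold chosen in the study. With 3 fish per group, p-values of edgeR and DESeq2 are printed only where adjusted over all gene models, and single differences are given as log2 fold changes with their standard error (SE). At 1 BL s-1, 1 of 36 models was higher than in the controls, where the share of higher calls among all 3902 gene models tested was 1.97%. At this speed 0 of 36 were lower (2.05% of all). At 2 BL s-1, 1 of 36 was higher (1.75% of all 3947 tested) and 1 of 36 was lower (2.71%). Between 2 and 1 BL s-1, 0 of 36 were higher (1.97% of all 3963 tested) and 0 of 36 were lower (2.27%). Calls in either direction among all gene models were 157 of 3902, 176 of 3947 and 168 of 3963. In simulated counts, between 4% and 4.74% of the unchanged gene models were called in the 3 comparisons. The calls are therefore not read as proof that a model differed. With Benjamini-Hochberg adjustment 0 of the 36 models passed in any comparison by edgeR, and among all gene models tested the share was 0% in each of them. DESeq2 on the same models gave 0 of 36 after adjustment. Among all gene models it passed 0 of 3902 at 1 BL s-1, 1 of 3947 at 2 BL s-1 and 2 of 3963 in 2 vs. 1 BL s-1.

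The interval of the fold change was bounded by 2-fold for most of the 36 models, and by 1.5-fold for a minority of them. The 95% interval of the fold change lay within 2-fold in either direction for 28 models at 1 BL s-1, 30 at 2 BL s-1 and 28 in 2 vs. 1 BL s-1. Among all gene models tested these shares were 37.0%, 47.2% and 38.8%. Within 1.5-fold lay the intervals of 7, 16 and 7 of the 36 models, against 3.95%, 7.37% and 3.71% of all models tested. Smaller changes are therefore not bounded for most of the models. The median log2 fold change of the 36 models was 0.07 at 1 BL s-1, -0.09 at 2 BL s-1 and -0.12 in 2 vs. 1 BL s-1, against -0.01, -0.00 and 0.03 for all models tested. Without the third fish at 1 BL s-1 the first of these medians was -0.04 and the last was -0.00. Scaling by library size in place of TMM moved the median of all models tested to 0.23 at 2 BL s-1 and in 2 vs. 1 BL s-1. The median of the translation models then stood at 0.13 and 0.08, or -0.10 and -0.15 relative to that of all models, close to the -0.09 and -0.15 with TMM. At 2 BL s-1 the calls with library size scaling were 3 higher (IF-2-like, eIF3 subunit B and glycine--tRNA ligase) and 0 lower. Among all 3947 models tested there, calls in either direction rose from 176 with TMM to 284 with library size scaling. Directions at 2 BL s-1 are therefore given relative to the bulk of the genes, which is what TMM scaling sets to no change.

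**Figure D2:**
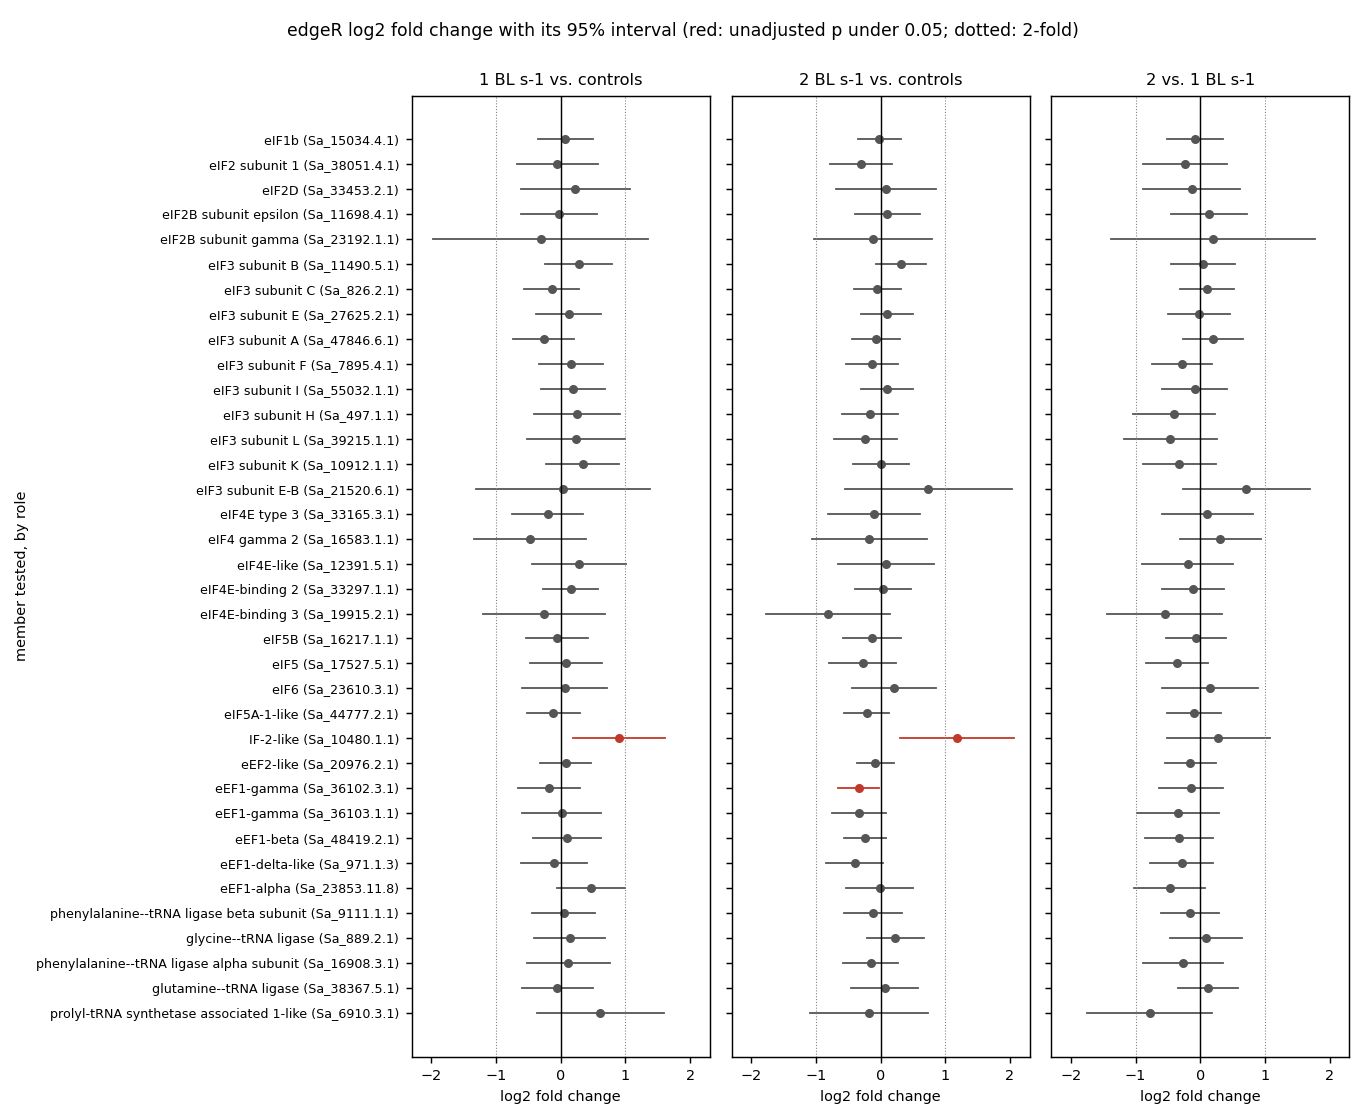
Log2 fold change (horizontal axis) with its 95% interval for the 36 models tested, ordered by role, in the 3 comparisons. Red marks an unadjusted p under 0.05, which are IF-2-like in both comparisons with the controls and eEF1-gamma (Sa_36102.3.1) at 2 BL s-1, and dotted lines mark a 2-fold change.

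The model called as higher in each comparison with the controls was Sa_10480.1.1, described as translation initiation factor IF-2-like. IF-2 is the GTPase that places the initiator tRNA on the ribosome in bacteria and, as a nuclear-encoded form, in mitochondria. The word "like" marks a similarity given by the annotation, and the protein behind this model was not examined here. A second IF-2-like model, Sa_7955.1.1, was listed at 0. The 6 models described as mitochondrial translation initiation factor IF held 5 counts over all fish, and none was tested. Its normalized counts, which are counts corrected for TMM-scaled depth, were 28.5, 56.1 and 38.1 in the controls, and they were 68.8, 90.5 and 71.0 at 1 BL s-1 and 58.5, 72.8 and 146 at 2 BL s-1. Every swimming fish was above every control fish, although the lowest fish at 2 BL s-1 and the highest control fish were close to each other.

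For IF-2-like the log2 fold change was 0.90 ± 0.31 (SE) at 1 BL s-1 (1.87-fold, adjusted p = 0.966 by edgeR) and 1.18 ± 0.39 at 2 BL s-1 (2.27-fold, adjusted p = 0.996). Between the swimming groups it was 0.28 ± 0.36 and not called, and it was -0.22 without the third fish at 2 BL s-1. At 2 BL s-1 the call was lost without the third fish of that group (0.68 ± 0.35). At 1 BL s-1 it was lost without the first control fish (0.71 ± 0.32), without the third control fish (0.86 ± 0.38) and without the second fish at 1 BL s-1 (0.75 ± 0.37). When the low-count filter was left out, edgeR gave IF-2-like an adjusted p = 0.0470 at 2 BL s-1, and over 12 alternatives this value ranged from 0.0470 to 1. The fish with the highest count of this gene also had the highest summed level of 8 fibroblast markers with a count, at 18729 normalized counts, against 4695 to 12452 in the other fish. Leukocyte markers, like IF-2-like, were higher in every swimming fish than in every control fish. The part of fibroblasts and of leukocytes in the IF-2-like values was not tested.

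**Figure D3:**
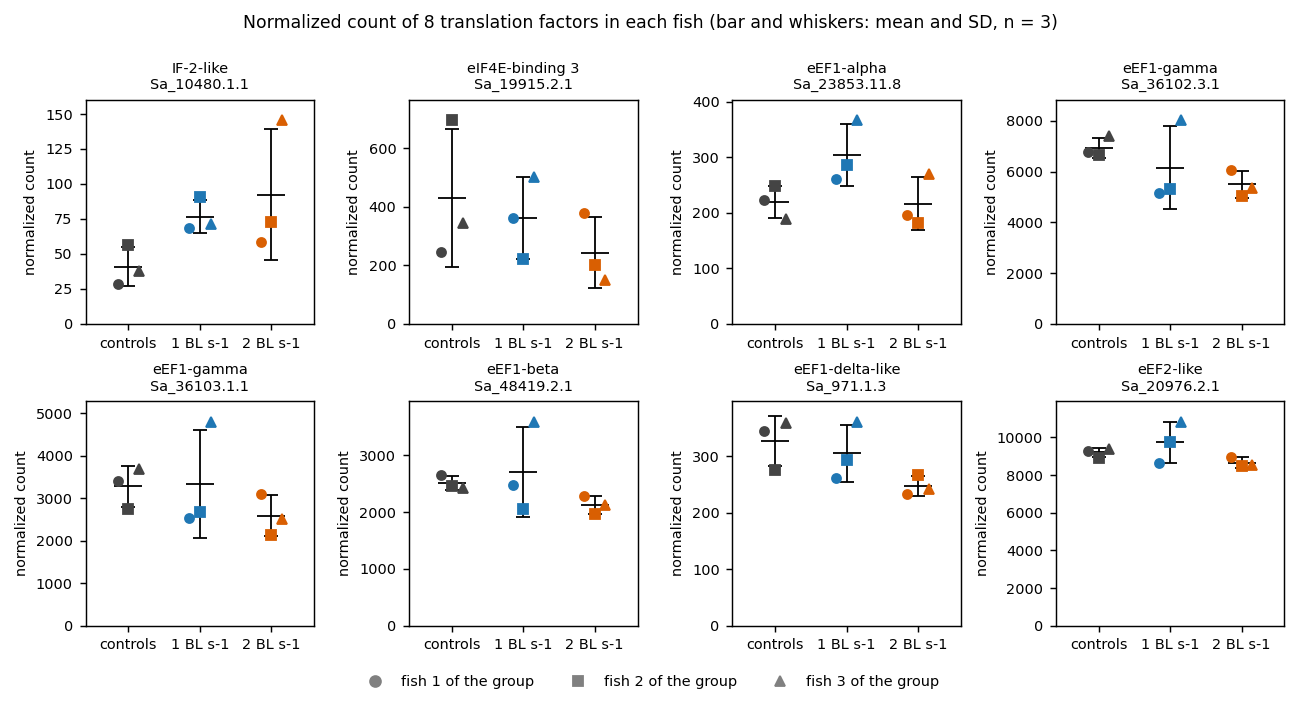
Normalized count (vertical axis, from 0) of 8 translation factors in each fish, with the mean and SD of the 3 fish per group. For IF-2-like every swimming fish lies above every control fish, and for eEF1-gamma Sa_36102.3.1 every fish at 2 BL s-1 lies below every control fish, whereas the third fish at 1 BL s-1 is the highest of all fish for eEF1-alpha, eEF1-beta, eEF2-like, eEF1-delta-like and both eEF1-gamma models.

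The second called model was an elongation factor. eEF1-gamma belongs to the eEF1B complex, whose beta and delta subunits exchange the nucleotide on eEF1A and whose gamma subunit anchors the complex. Elongation factor models took 56.1% of the counts of all translation models. The eEF1-gamma model Sa_36102.3.1 had 6786, 6654 and 7398 normalized counts in the control fish, 5151, 5301 and 8030 at 1 BL s-1 and 6078, 5045 and 5365 at 2 BL s-1. The fish at 2 BL s-1 were all below the controls, whereas at 1 BL s-1 the first and second fish were lower than the controls and the third was the highest fish of all.

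The log2 fold change of Sa_36102.3.1 at 2 BL s-1 was -0.33 ± 0.14 (SE), a level of 0.794 of that in the controls (adjusted p = 0.996 by edgeR). The call was lost in 9 of 12 alternatives, which were DESeq2 (-0.34 ± 0.22), all 9 fish in one fit (-0.34 ± 0.20), no low-count filter (-0.35 ± 0.19), library size scaling (-0.11 ± 0.12) and the omission of any fish but the first at 2 BL s-1 (between -0.37 and -0.28). At 1 BL s-1 its log2 fold change was -0.18 ± 0.21 with all fish, and it was called at -0.41 ± 0.14 without the third fish of that group.

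A second eEF1-gamma model, Sa_36103.1.1, had 3402, 2747 and 3686 normalized counts in the control fish, 2528, 2676 and 4800 at 1 BL s-1 and 3109, 2142 and 2522 at 2 BL s-1. Its fish at 2 BL s-1 overlapped those of the controls, and the log2 fold change was -0.33 ± 0.19 (SE), not called, although it was called without the second control fish (-0.45 ± 0.20) or the first fish at 2 BL s-1 (-0.49 ± 0.19) and with the replicate number as a block (-0.34 ± 0.14). The ratio of the first to the second eEF1-gamma model was between 1.67 and 2.42 in the 9 fish. Both models carry the same description and their sequences were not compared here, so they are not counted as independent results.

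The other subunits of eEF1B did not pass the test. eEF1-beta (Sa_48419.2.1) had 2661, 2453 and 2430 normalized counts in the control fish, 2479, 2057 and 3589 at 1 BL s-1 and 2280, 1961 and 2121 at 2 BL s-1. eEF1-delta-like (Sa_971.1.3) had 345, 276 and 359 in the control fish, 261, 293 and 360 at 1 BL s-1 and 232, 266 and 241 at 2 BL s-1. For both, all fish at 2 BL s-1 were below all control fish, with log2 fold changes of -0.24 ± 0.15 (SE) and -0.40 ± 0.20. eEF1-delta-like was called without the second control fish (-0.51 ± 0.21). With 3 fish against 3 the smallest p of the exact two-sided permutation test is 0.1, and both genes were at that value.

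All 4 models of eEF1B had a negative log2 fold change at 2 BL s-1, with a median of -0.33, and 1 of the 4 passed the test. The 4 include both eEF1-gamma models, 1 of them the called model, and the set was not planned. They are therefore not 4 independent results, and their shared sign is not separate support for the call. Among all 3947 models tested at this speed 1977 were negative. With library size scaling all 4 remained negative, with a median of -0.11. Over the 12 alternatives the log2 fold change of eEF1-beta came as near to 0 as -0.02. The median deviation of the 4 models per fish was 0.17, -0.02 and 0.29 for the control fish, -0.19, -0.18 and 0.48 at 1 BL s-1 and -0.05, -0.29 and -0.22 at 2 BL s-1. The 37 cytosolic ribosomal protein models kept by the filter had per-fish medians of 0.17, -0.04 and 0.13, then -0.08, -0.11 and 0.60, then -0.19, -0.29 and -0.19. Both sets were highest in the third fish at 1 BL s-1. With TMM scaling the fish at 2 BL s-1 were all below all controls for both, by little for eEF1B (-0.05 against -0.02). Per-fish medians were not computed with library size scaling, which moved the median fold change of all models tested at 2 BL s-1 to 0.23 on the log2 scale.

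**Figure D4:**
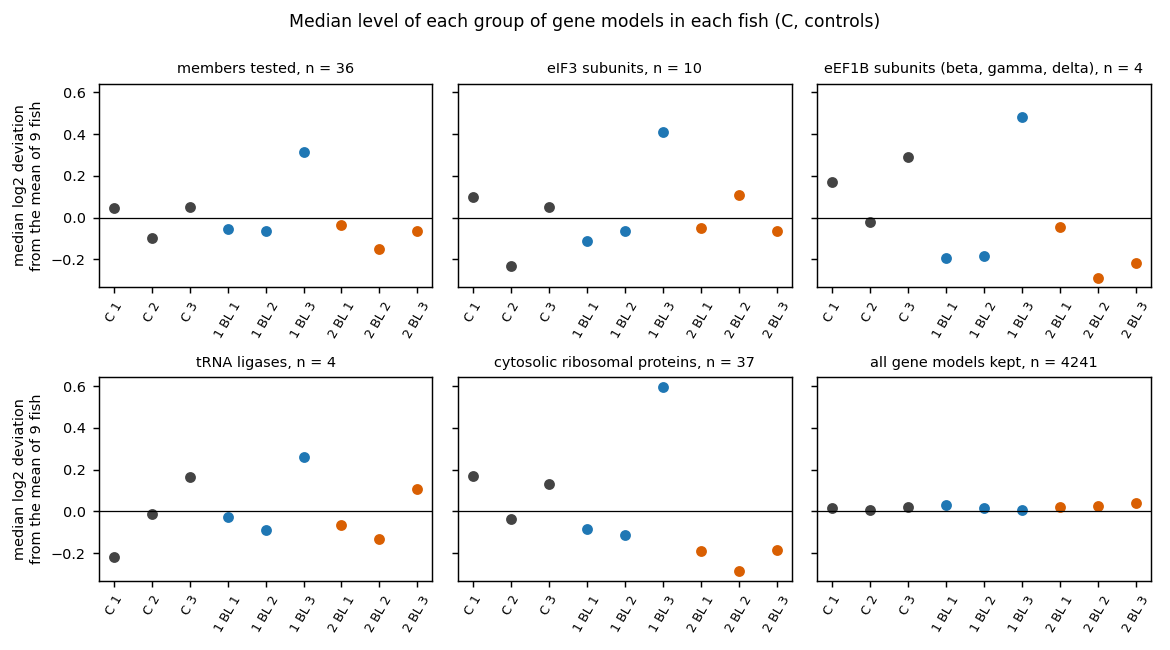
Median deviation from the mean of the 9 fish (vertical axis, log2) in each fish for 6 sets of gene models. The third fish at 1 BL s-1 is the highest fish for the 36 translation models (0.32), the eIF3 subunits (0.41), the eEF1B subunits (0.48), the tRNA ligases (0.26) and the cytosolic ribosomal proteins (0.60), whereas the median of all models kept lies near 0 in every fish.

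The only eEF1A model tested, Sa_23853.11.8, had 223, 248 and 189 normalized counts in the control fish, 260, 287 and 367 at 1 BL s-1 and 196, 182 and 271 at 2 BL s-1. All other eEF1A models were listed at 0 or did not pass the filter, so this model is not read as the level of eEF1A. The fish at 1 BL s-1 were all above the controls, and those at 2 BL s-1 overlapped both other groups. The log2 fold change was 0.46 ± 0.23 (SE) at 1 BL s-1, -0.02 ± 0.23 at 2 BL s-1 and -0.48 ± 0.24 in 2 vs. 1 BL s-1, none of them called. Without the third fish at 1 BL s-1 the first was 0.31 and the last -0.34, and the last was called without the third fish at 2 BL s-1 (-0.68 ± 0.29). The eEF2-like model Sa_20976.2.1 stands for the factor that moves the ribosome to the next codon. It had 9304, 8929 and 9392 normalized counts in the control fish, 8650, 9768 and 10828 at 1 BL s-1 and 8978, 8488 and 8538 at 2 BL s-1. Its log2 fold changes were 0.08 ± 0.17 and -0.08 ± 0.13 (SE) at 1 and 2 BL s-1, and the 95% interval at 2 BL s-1 ran from 0.776-fold to 1.15-fold.

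All 6 elongation models tested had a negative log2 fold change at 2 BL s-1 (median -0.29) and in 2 vs. 1 BL s-1 (median -0.31), with 1 and 0 calls. The 6 include both eEF1-gamma models. Among all models tested, 1977 of 3947 and 1878 of 3963 were negative in these comparisons. With library size scaling 4 of the 6 elongation models were negative in each. At 1 BL s-1, 2 of 6 were negative with all fish and 5 of 6 without the third fish of that group. Without that fish the median in 2 vs. 1 BL s-1 was -0.09, with 5 of 6 negative, and for the 4 models of eEF1B it was -0.05, with 3 of 4 negative. At 2 BL s-1 omission of any 1 fish left 5 or 6 of the 6 negative, with medians between -0.33 and -0.21.

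Among initiation factors, eIF3 was covered best. It is the large complex that binds the small ribosomal subunit and the mRNA, and 10 of its 30 models were tested, for subunits A, B, C, E, E-B, F, H, I, K and L. None of the 10 was called in any comparison by edgeR with TMM, and the closest to the threshold was subunit B (Sa_11490.5.1) at 2 BL s-1. Subunit B, a scaffold of the complex, had 1596, 1270 and 1205 normalized counts in the control fish, 1489, 1371 and 2110 at 1 BL s-1 and 1760, 1755 and 1531 at 2 BL s-1. Its log2 fold change at 2 BL s-1 was 0.31 ± 0.17 (SE), and with library size scaling it was 0.55 ± 0.16 and passed the unadjusted threshold, as it did without the first control fish (0.44 ± 0.19).

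Subunit C (Sa_826.2.1), a core subunit that contacts other initiation factors, had 1806, 1419 and 1601 normalized counts in the control fish, 1485, 1358 and 1555 at 1 BL s-1 and 1470, 1706 and 1477 at 2 BL s-1. Subunit E (Sa_27625.2.1) had 693, 546 and 699, then 608, 648 and 867, then 653, 756 and 659. For both subunits the groups overlapped, and their log2 fold changes lay between -0.14 and 0.12 in the 3 comparisons. E-B (Sa_21520.6.1), a second model of subunit E, had the largest positive log2 fold change of the 36 models in 2 vs. 1 BL s-1 (0.71 ± 0.44, SE), which was 0.27 without the second fish at 2 BL s-1. It had 15.2, 3.30 and 23.0 normalized counts in the control fish, 19.1, 12.2 and 11.6 at 1 BL s-1 and 15.1, 35.9 and 19.7 at 2 BL s-1, so the groups overlapped.

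The subunits of eIF3 did not keep their ratio in the third fish at 1 BL s-1. The ratio of subunit H to subunit A was 1.57 there and between 0.517 and 0.693 in the other 8 fish. Subunit A (Sa_47846.6.1) was the only one of the 3 models not overlapping between 1 BL s-1 and the controls that was lower, with 537, 577 and 434 normalized counts against 652, 609 and 593 (log2 fold change -0.26 ± 0.21, SE, and -0.15 without the third fish at 1 BL s-1). Subunit F (Sa_7895.4.1) was lower in every fish at 2 than at 1 BL s-1, with 453, 456 and 434 against 496.9, 501 and 660 normalized counts (-0.29 ± 0.20, and -0.16 without the third fish at 1 BL s-1).

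**Figure D5:**
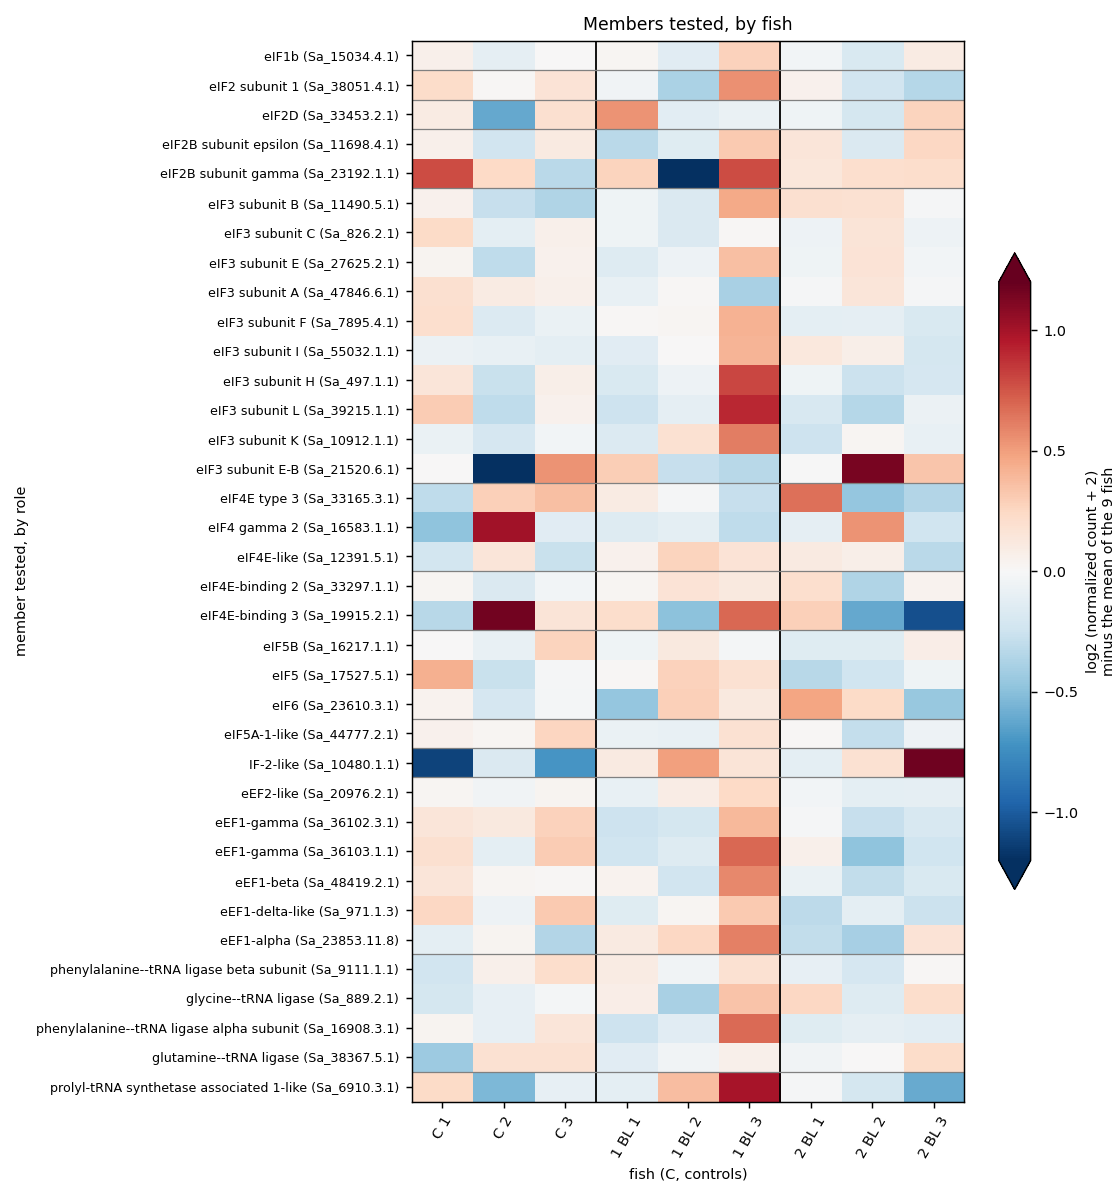
Deviation of each of the 36 models tested from its mean over the 9 fish (colour, log2 of the normalized count + 2), with the models in rows by role and the fish in columns by group. The third fish at 1 BL s-1 is above the mean for most eIF3 and elongation models but below it for eIF3 subunit A, whereas IF-2-like is lowest in the controls, and colours end at a deviation of 1.2.

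The eIF4 group acts at the mRNA cap, which its eIF4E members bind. Of its 84 models 3 were tested. eIF4E type 3 (Sa_33165.3.1), a member of the cap-binding eIF4E family, had 495, 745 and 788 normalized counts in the control fish, 657, 607 and 505 at 1 BL s-1 and 968, 442 and 480 at 2 BL s-1. The groups overlapped, with log2 fold changes of -0.20 and -0.10 at 1 and 2 BL s-1, and without the first fish at 2 BL s-1 the second of these was -0.56. eIF4G2 (Sa_16583.1.1), a relative of the scaffold eIF4G1 that lacks the binding site for eIF4E, had 70.1, 201 and 90.3 in the control fish, 88.8, 91.5 and 80.1 at 1 BL s-1 and 91.6, 144 and 83.6 at 2 BL s-1. Its log2 fold change at 1 BL s-1 was -0.48 ± 0.38 (SE), the largest negative one of the 36 models there, and without the second control fish, the highest of all, it was 0.10. The eIF4E-like model Sa_12391.5.1 stayed between 16.9 and 26.4 normalized counts in all 9 fish.

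The 4E-binding proteins (4E-BPs) hold eIF4E away from eIF4G until mTOR phosphorylates them, and 4E-BP1-like was listed at 0 in its 7 models. 4E-BP3 (Sa_19915.2.1) had 246, 696 and 346 normalized counts in the control fish, 361, 221 and 501 at 1 BL s-1 and 379, 202 and 148 at 2 BL s-1. Its log2 fold change at 2 BL s-1 was -0.81 ± 0.43 (SE), the largest negative one there, with overlapping fish, and it was not called. It passed the unadjusted threshold without the first control fish (-1.10 ± 0.43), without the first fish at 2 BL s-1 (-1.29 ± 0.44) and without the low-count filter (-0.82 ± 0.26), and over 12 alternatives it ranged from -1.29 to -0.28, the latter without the second control fish. 4E-BP2 (Sa_33297.1.1) varied less, with 715, 624 and 684 in the control fish, 713, 787 and 761 at 1 BL s-1 and 806, 545 and 722 at 2 BL s-1. The ratio of 4E-BP3 to 4E-BP2 ran from 0.206 to 1.12 over the 9 fish.

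Other initiation factors showed small differences. eIF1b (Sa_15034.4.1), a paralog of the start codon selection factor eIF1, had between 2645 and 3630 normalized counts in the 9 fish and log2 fold changes of 0.07, -0.02 and -0.09 in the 3 comparisons. The eIF5A-1-like model (Sa_44777.2.1) stands for a hypusine-bearing factor that relieves stalled ribosomes. It had 3742, 3681 and 4311 in the control fish, 3417, 3393 and 4092 at 1 BL s-1 and 3648, 2960 and 3466 at 2 BL s-1. All fish at 2 BL s-1 were below all control fish, by a log2 fold change of -0.22 ± 0.15 (SE) that was not called. eIF5 (Sa_17527.5.1), which makes eIF2 hydrolyse its GTP at the start codon, had 281, 174 and 207 in the control fish, 211, 254 and 238 at 1 BL s-1 and 165, 176 and 202 at 2 BL s-1. It was lower in every fish at 2 than at 1 BL s-1 (-0.36 ± 0.21, SE, not called).

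Subunit 1 of eIF2 (Sa_38051.4.1) carries the serine whose phosphorylation slows initiation. It had 139, 121 and 134 normalized counts in the control fish, 116, 91.5 and 176 at 1 BL s-1 and 124, 102 and 93.9 at 2 BL s-1, with overlapping groups and a log2 fold change of -0.30 ± 0.21 (SE) at 2 BL s-1. eIF2B, the factor that reloads eIF2 with GTP, was measured by its catalytic epsilon subunit (Sa_11698.4.1), with between 91.4 and 143 normalized counts, and by its gamma subunit (Sa_23192.1.1), with between 1.02 and 23.4. The gamma subunit had a log2 fold change of -0.31 ± 0.74 (SE) at 1 BL s-1, and its 95% interval reached from 0.256-fold to 2.56-fold. Omission of 1 fish in turn moved it between -0.89 and 0.23. eIF2D (Sa_33453.2.1), eIF5B (Sa_16217.1.1) and eIF6 (Sa_23610.3.1) were not called in any comparison, with log2 fold changes between -0.14 and 0.22.

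In the charging of tRNAs, 4 of 19 tRNA ligase models were tested and 0 were called in any comparison by edgeR with TMM. Phenylalanine--tRNA ligase is made of alpha and beta subunits. The alpha subunit (Sa_16908.3.1) had 236, 216 and 254 normalized counts in the control fish, 194, 209 and 369 at 1 BL s-1 and 208, 213 and 211 at 2 BL s-1. Its fish at 2 BL s-1 lay just under the lowest control fish, with a log2 fold change of -0.15 ± 0.19 (SE). The beta subunit (Sa_9111.1.1) had 267, 328 and 364 in the control fish, 335, 304 and 355 at 1 BL s-1 and 294, 273 and 316 at 2 BL s-1, with overlapping groups. The ratio of alpha to beta was 1.04 in the third fish at 1 BL s-1 and between 0.579 and 0.882 in the others.

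Glycine--tRNA ligase (Sa_889.2.1) had 262, 283 and 298 normalized counts in the control fish, 320, 231 and 385 at 1 BL s-1 and 361, 272 and 350 at 2 BL s-1. Its log2 fold change at 2 BL s-1 was 0.23 ± 0.20 (SE), and with library size scaling it was 0.44 ± 0.19 and passed the unadjusted threshold. A second glycine--tRNA ligase model, Sa_889.3.1, did not pass the filter. It had raw counts of 1, 1 and 3 in the control fish, 3, 3 and 0 at 1 BL s-1 and 1, 0 and 42 at 2 BL s-1, so that 42 of its 54 counts came from 1 fish. Without the filter edgeR gave it an adjusted p = 0.0204 at 2 BL s-1. That fish, the third at 2 BL s-1, is also the one with the highest IF-2-like and fibroblast marker levels.

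Glutamine--tRNA ligase (Sa_38367.5.1) had between 163 and 258 normalized counts in the 9 fish and log2 fold changes of -0.05, 0.07 and 0.12 in the 3 comparisons. A model described as prolyl-tRNA synthetase associated domain-containing 1-like (Sa_6910.3.1), which the rule includes by its name, had 18.3, 9.90 and 14.2 in the control fish, 13.9, 20.3 and 32.3 at 1 BL s-1 and 15.1, 12.96 and 9.40 at 2 BL s-1. It had the largest negative log2 fold change of the 36 models in 2 vs. 1 BL s-1 (-0.78 ± 0.43, SE), with overlapping fish. It was called in that comparison without the first fish at 1 BL s-1 (-1.06 ± 0.44), whereas without the third fish of that group it was -0.45.

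The study also looked at genes in which all fish of one group differ from all fish of another. Between 1 BL s-1 and the controls, 3 of the 36 models did not overlap (11.0% of all models tested), with IF-2-like and the eEF1A model Sa_23853.11.8 higher and eIF3 subunit A lower. Between 2 BL s-1 and the controls, 6 of 36 did not overlap (9.75% of all). IF-2-like was the 1 that was higher, and the 5 that were lower were eEF1-gamma Sa_36102.3.1, eEF1-beta, eEF1-delta-like, eIF5A-1-like and the alpha subunit of phenylalanine--tRNA ligase. Between 2 and 1 BL s-1, 2 of 36 did not overlap (10.9% of all), namely eIF5 and eIF3 subunit F. These counts depend on the scaling. With library size scaling they were 4, 9 and 2, in each case with 0 lower, and the 5 models that were lower at 2 BL s-1 with TMM then overlapped with the controls. Over all 3947 models tested at 2 BL s-1 the split moved from 172 higher and 213 lower with TMM to 519 higher and 55 lower. Over the 3902 models tested at 1 BL s-1 the split moved from 236 higher and 192 lower to 289 higher and 120 lower. Over the 3963 models tested in 2 vs. 1 BL s-1 it moved from 202 higher and 231 lower to 446 higher and 86 lower.

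The spread between fish at 1 BL s-1 is given with the third fish and without it. The median coefficient of variation over the 36 models was 13.5% in the controls, 19.9% at 1 BL s-1 and 10.2% at 2 BL s-1. It exceeded 25% for 7, 14 and 6 models. Between the first and second fish at 1 BL s-1 alone the median was 7.43%, and 6 models exceeded 25%.

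Further genes of translation were taken from lists of descriptions. Of 132 models of other translation factors, such as mitochondrial elongation and release factors, the recycling factor ABCE1 and the enzymes that make hypusine on eIF5A, 36 had a count and 19 were tested, and 0 were called in any comparison by edgeR with TMM and all fish. Deoxyhypusine synthase (Sa_18598.1.1) and deoxyhypusine hydroxylase (Sa_36856.1.1) had log2 fold changes of 0.14 and 0.25 at 1 BL s-1 and 0.16 and 0.08 at 2 BL s-1. Of 214 models for tRNA processing and modification 37 had a count, 6 or 7 were tested in a comparison and 0 were called by edgeR with TMM and all fish. In either list no setting called more than 1 model in a comparison.

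The list of regulators of translation held 150 models, of which 44 had a count and between 17 and 20 were tested. At 1 BL s-1, 2 of 17 were lower than in the controls (2.05% of all models tested), at 2 BL s-1 0 of 18 were called, and in 2 vs. 1 BL s-1 1 of 20 was higher (1.97% of all), by edgeR. The count of lower models at 1 BL s-1 was 1 with DESeq2, 0 with library size scaling or without the third control fish, and 7 of 42 without the low-count filter. In 2 vs. 1 BL s-1 the count of higher models was 4 with the replicate number as a block or without the first fish at 1 BL s-1, and 3 of 41 without the low-count filter. Calls in either direction among all gene models were 527 of 13211 at 1 BL s-1 without the filter. In 2 vs. 1 BL s-1 they were 178 of 3963 with the block and 633 of 13407 without the filter. Sestrin-3-like (Sa_23763.9.1), of a family that restrains mTOR when amino acids are low, had 609, 1211 and 919 normalized counts in the control fish, 607, 520 and 659 at 1 BL s-1 and 1445, 1009 and 758 at 2 BL s-1. Its log2 fold change was -0.62 ± 0.27 (SE) at 1 BL s-1 (adjusted p = 0.966 by edgeR) and 0.86 ± 0.26 in 2 vs. 1 BL s-1 (adjusted p = 0.897). Both comparisons use the same fish at 1 BL s-1. The second call held in all 12 alternatives, with log2 fold changes between 0.58 and 1.05, whereas the first was lost in 8 of 12, among them DESeq2 (-0.63) and the omission of the second control fish (-0.38).

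Hamartin-like Sa_31945.3.1, a subunit of the complex that restrains mTOR, had 40.7, 26.4 and 56.7 normalized counts in the control fish, 28.7, 20.3 and 18.1 at 1 BL s-1 and 29.3, 34.9 and 19.7 at 2 BL s-1. It was lower at 1 BL s-1 by a log2 fold change of -0.88 ± 0.37 (SE, adjusted p = 0.966 by edgeR), and it was not called in 7 of 12 alternatives, among them DESeq2 (-0.88) and the omission of the third fish of that group (-0.75) or of the third control fish (-0.57). The mTOR kinase itself (Sa_12544.2.1), named for its role after its values were seen, had a log2 fold change of -0.91 ± 0.43 (SE) at 1 BL s-1 and -0.30 ± 0.30 at 2 BL s-1, neither called, and without the third fish at 1 BL s-1 the first was -0.57. The first was called in 4 of 12 alternatives.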

How the data were processed

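White muscle of 9 fish (3 per group) was measured by RNAseq. Stranded mRNA libraries were made, and per the study's methods and the labels the authors aligned read pairs to the species' genome by TopHat2 2.0.13, dropped secondary alignments (SAMtools 1.2) and counted the fragments of each predicted gene (HTSeq 0.6.1p1). The study identifies its reference assembly by a database link, whereas a build name, the strand setting and further rules for reads with several matches are not given in its text. The deposited counts are raw and not normalized. The tables also hold the authors' group means, fold changes and p-values, which were not used, and 2 columns without a sample label.

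The 3 tables were joined by identifier, with 0 differing counts. Each pair of groups was tested on all gene models with edgeR 4.0.16 (R 4.3.3; TMM, filterByExpr, quasi-likelihood test, Benjamini-Hochberg adjustment). The SE is the log2 fold change divided by the square root of F. Each count was normalized by the TMM-scaled library size of its fish relative to the geometric mean of the 9 fish. Deviations per fish use a prior count of 2. Intervals cover counting error only where they are Wilson intervals. DESeq2 1.42.0, RLE factors, no filter, all 9 fish in one fit, a replicate block and omission of each fish were also tried, and library size scaling was chosen after seeing the data. The fit was tested on simulated counts with known changes, and between 63% and 67% of the simulated 2-fold changes were called in the 3 comparisons. The members and lists were chosen with earlier results of these data known. Named with values are models past the threshold, the 3 with the highest mean in each role, and the 2 largest changes in either direction per comparison, and p-values under 0.1 could be added, as were subunits named for a ratio or for fish that do not overlap. No sequences or coordinates were used. Lengths were not used, so shares of counts, ratios of models and ranks by mean count are not corrected for length and do not compare levels between genes. The other steps used Python 3.11.15 (pandas 2.3.3, scipy 1.17.1, numpy 2.4.6, matplotlib 3.10.9).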

Additional observations from a re-analysis of the deposited data

How the results depend on the processing

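Each fold change comes from 3 fish against 3, and most gene models of the list carried no count, so the results cover 36 of 270 models. Over all alternatives 0 of the fold changes past the threshold changed sign. Of 108 fold changes of the translation models (36 models in 3 comparisons), 3 were called at an unadjusted p of 0.05 and all 3 lost the call under some setting, whereas 9 of the other 105 gained one. Of the 9 fold changes of sestrin-3-like, hamartin-like and mTOR, 2 of 3 called lost the call and 2 of 6 gained one. The cause of these changes was not tested, except that omission of a fish leaves fewer samples.

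At 1 BL s-1 the count of higher models was 1 with TMM and 2 without the low-count filter, and omission of 1 fish in turn gave 0 to 1 higher and 0 to 1 lower models. At 2 BL s-1 the count of higher models was 2 without the low-count filter and 3 with library size scaling, and the count of lower models fell to 0 by DESeq2, to 0 in the fit of all 9 fish together and to 0 with library size scaling. Omission of 1 fish in turn gave 0 to 2 higher and 0 to 3 lower models there. For the fits without 1 fish, in any comparison, the share of calls over all gene models is not given here. The counts from those fits are therefore not read as results about the translation models. In 2 vs. 1 BL s-1 there were 1 higher and 1 lower model without the low-count filter, and omission of 1 fish gave 0 to 1 lower models. Calls among all gene models without that filter, in either direction, were 527 of 13211 at 1 BL s-1 and 565 of 13487 at 2 BL s-1. In 2 vs. 1 BL s-1 they were 633 of 13407. With library size scaling 284 of all 3947 gene models tested at 2 BL s-1 were called in either direction. After adjustment, 2 translation models passed at 2 BL s-1 without the low-count filter (IF-2-like, and glycine--tRNA ligase Sa_889.3.1 with its counts from 1 fish). Of all 13487 models in that fit, 92 passed. The median log2 fold change of the translation models was 0.13 at 2 BL s-1 and 0.078 in 2 vs. 1 BL s-1 with library size scaling.

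With the replicate number as a block, 2 models were lower at 2 BL s-1, both described as eEF1-gamma, and the other counts of translation models called did not change. Of all 3947 gene models tested at 2 BL s-1, 183 were called in either direction with the block and 176 without it. Among the regulators of translation the replicate block gave 4 of 20 higher in 2 vs. 1 BL s-1, against 1 of 20 without it. Among all 3963 gene models tested there, 178 were called in either direction with the block and 168 without it. The labels do not say that a number marks a shared tank, day or animal. The correlation of same-numbered fish in their deviations from the group means was between 0.0179 and 0.176 for 1 BL s-1 vs. controls, between 0.0170 and 0.0606 for 2 BL s-1 vs. controls, and between -0.0347 and 0.139 for 2 vs. 1 BL s-1, so the replicate block is not read as a paired design.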

Other observations

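The descriptions of many tRNA ligases in the tables lack the word ligase, so the rule above does not find them. A list of these, added after the descriptions were read, held 105 gene models, of which 26 had a count and 13 or 14 were tested, and 0 were called in any comparison by edgeR with TMM and all fish. At 2 BL s-1, 1 of 13 was higher with library size scaling, where 284 of all 3947 gene models were called in either direction. At that speed 1 of 14 was lower without the first fish of the group and 1 of 15 without the second control fish. The share over all gene models is not given for those 2 fits, so these calls are not read as results. Their median log2 fold change was -0.09 at 1 BL s-1, -0.06 at 2 BL s-1 and -0.05 in 2 vs. 1 BL s-1. A model of mitochondrial alanine--tRNA ligase, Sa_33980.1.1, was among them with a log2 fold change of -0.94 at 2 BL s-1. It was not called by edgeR with TMM and all fish. Its spread between fish is not given here, so the value is not read as a difference.

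The helicase eIF4A, which unwinds the start of the mRNA, is described in the tables as an initiation factor without the word translation. Of its 4 models 3 had a count and 2 were tested, 4A-II (Sa_8399.16.1) and 4A-III (Sa_26725.1.1), a homolog in the exon junction complex. Their log2 fold changes were 0.09 and 0.34 at 1 BL s-1 and -0.02 and 0.10 at 2 BL s-1, and neither was called in any comparison by edgeR with TMM and all fish.

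Of the eEF1A model Sa_23853.11.1, which did not pass the filter, 6 of the 7 counts came from the second fish at 1 BL s-1.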
